A study of Saccharomyces cerevisiae with 4 samples.

Results

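The mitochondrial ribosome of Saccharomyces cerevisiae is represented here by the ORFs whose standard gene name is MRPL, MRPS, MRP or RSM followed by a number, found through the locus tag, without MRP8, which encodes no ribosomal protein. The rule took in 66 of the 6211 ORFs in the deposited table, 38 encoding large-subunit and 28 small-subunit proteins. The rule reads gene names and uses no measured value, although it was set with earlier results of these data known. Expression microarrays, in a series whose title concerns the response to a DNA-damaging compound, set BY4741 cultures given 10 µg/ml b-lapachone in DMSO for 1 h against BY4741 cultures given the vehicle, 1% DMSO, for 1 h. b-Lapachone is a quinone that can cycle between reduced and oxidised forms in cells. Both kinds of culture were the same haploid strain, MATa his3Δ1 leu2Δ0 LYS2 met15Δ0 ura3Δ0, grown at 28 °C in YPD, a rich glucose medium, to an absorbance of 0.6. Each of the 4 arrays (4 biological replicates, 1 group) carried RNA of both cultures, and the dyes were swapped: replicates 1 and 3 had the treated RNA on Cy3, the other replicates on Cy5. A ratio holds no level, so the strain's own markers could not be read as present or absent.

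Mitochondrial ribosomes translate the few mRNAs made from mitochondrial DNA, nearly all of which encode membrane subunits of the respiratory chain and the ATP synthase. Their rRNAs come from the mitochondrial genome, whereas all but 1 of their proteins are encoded in the nucleus, made on cytosolic ribosomes and imported. Many descend from bacterial ribosomal proteins, and the rest were added during the evolution of mitochondria. In yeast the mRNAs of these proteins are a well-known target group of the RNA-binding protein Puf3, and cells growing by fermentation on glucose need the organelle's translation less than cells that respire.

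Of the 66 genes, 58 had a value on all 4 arrays, 3 on 3 (MRP49, RSM28 and MRP13) and 5 on fewer. The 61 with at least 3 values were tested. MRPL13, MRPL15, MRPL24 and MRPS17 had no value, and MRPL25 had -0.15 on replicate 2 and 0.22 on replicate 3. The filter counted arrays and set no minimum value. All values are log2 ratios taken as b-lapachone over vehicle. The table states neither base nor direction. Treated over vehicle is the usual form and is therefore likely rather than settled, and the opposite form would exchange every value above and below 0.

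After 1 h with b-lapachone most mitochondrial ribosomal protein genes lay slightly below 0, and none passed the test on its own. Mean log2 ratios were below 0 for 51 of the 61 tested (83.6%), against 53.2% of all 5112 genes tested. With the signs of replicates 1 and 3 turned, as a table of one fixed dye over the other would need, 18 would be below 0 and 43 above, against 47.2% of all genes below. As deposited, their median was -0.13, or 1.10-fold lower, beside -0.015 for all genes. Means ran from -0.36 (MRPL8) to 0.27 (MRPL6), with quartiles at -0.20 and -0.071. The SD of the members' means was 0.14, against 0.21 over all genes. RNA came from whole cultures, so fewer responding cells and less RNA per cell cannot be told apart.

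In the test of each gene against 0 (limma, Benjamini-Hochberg over all 5112 genes, threshold 0.05) 0 of 61 members were called, where 3.03% of all genes were (2.07% higher and 0.959% lower). No alternative fit called a member either. At an unadjusted p under 0.05, 8 of 61 members were below 0 and 1 of 61 above 0. Of all 5112 genes, 441 (8.63%) were below and 519 (10.2%) above, 18.8% in either direction. Without replicate 3 the members' counts were 3 and 0. The smallest mean called anywhere in the table had a size of 0.40, and the largest member mean had a size of 0.36. With a median standard error of 0.108 per member, a difference the size of the group's median was not detectable in a single gene with this number of arrays.

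**Figure D1:**
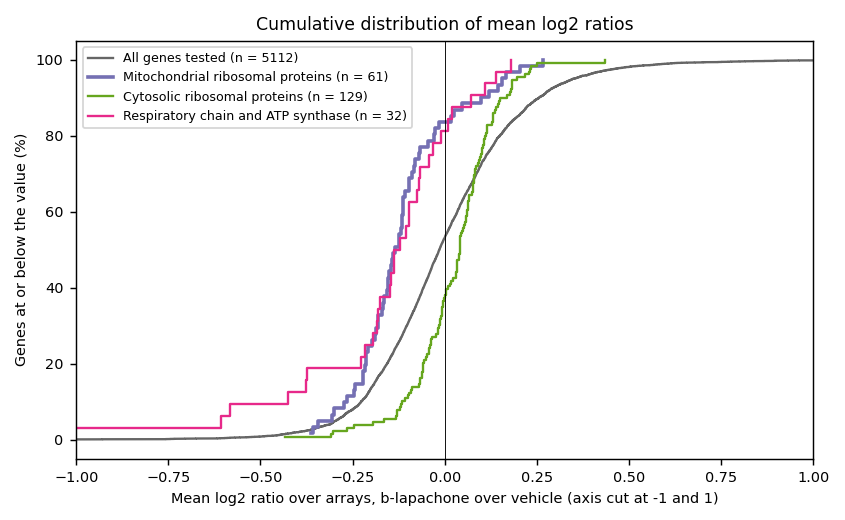
Cumulative distribution of mean log2 ratios (horizontal axis, b-lapachone over vehicle) as the percent of genes at or below each value (vertical axis), for all genes tested, the mitochondrial ribosomal protein genes, the cytosolic ribosomal protein genes and the genes of the respiratory chain and ATP synthase. The mitochondrial ribosomal curve crosses 0 at 83.6% and the curve of all genes at 53.2%, while of the 3 lists only the respiratory one reaches far to the left.

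The values were below 0 on every array that measured the gene for 17 members (27.9%), against 14.4% of all genes. They were above 0 on every array for 2, MRPL6 and RSM25, against 12.9% of all genes. The genes below 0 throughout were MRPL7, MRPL16, MRPL20, MRPL32, MRPL33, MRPL35, MRPL37, MRPL39 and MRP7 of the large subunit and RSM10, RSM19, RSM24, RSM28, MRPS8, MRPS9, MRP17 and MRP21 of the small subunit. RSM28 was measured on 3 arrays and the others on 4. A further 26 of the 58 members with 4 values (44.8%) were below 0 on 3 arrays, against 25.1% of all genes with 4 values.

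The shift was unequal between arrays, and the member medians were lower on the arrays with treated RNA on Cy3. With 2 arrays in each orientation, a difference by dye and one between single arrays cannot be told apart. The median over the members was -0.18 on replicate 1 and -0.23 on replicate 3, where treated RNA carried Cy3. It was -0.058 on replicate 2 and -0.057 on replicate 4, where treated RNA carried Cy5. The medians of all genes tested were -0.021, -0.0087, -0.017 and 0.0016 on replicates 1 to 4. Counts below 0 were 41 of 60 members on replicate 1, 37 of 61 on replicate 2, 55 of 61 on replicate 3 and 40 of 59 on replicate 4. Every array therefore had its member median below 0 and below that of all genes, by the widest margin on replicate 3.

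**Figure D2:**
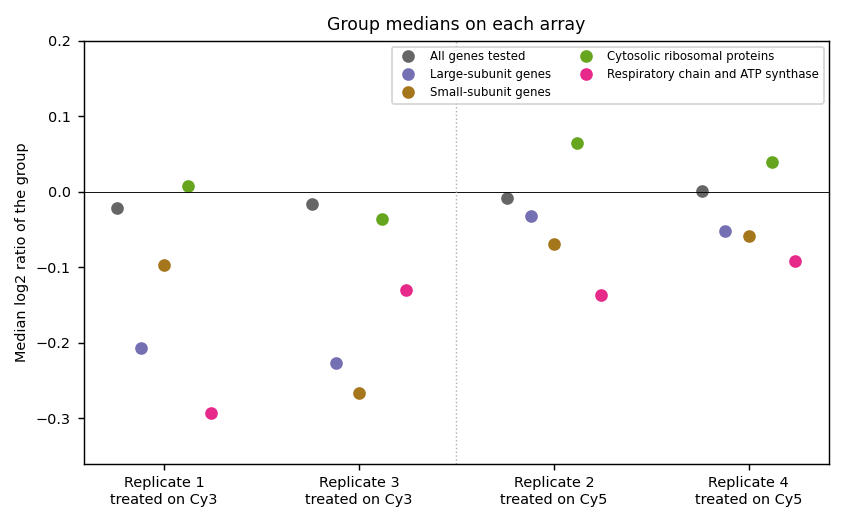
Median log2 ratio (vertical axis) of 5 groups of genes on each array (horizontal axis), the arrays with treated RNA on Cy3 to the left of the dotted line and those with treated RNA on Cy5 to the right. Both subunits of the mitochondrial ribosome lie below 0 on all 4 arrays, and the large-subunit median falls between -0.23 and -0.032.

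Among the 58 members with 4 values, 40 (69.0%) were higher on the Cy5 arrays than on the Cy3 arrays, against 51.9% of all genes with 4 values. The median difference, Cy5 arrays minus Cy3 arrays, was 0.11 for members and 0.0095 for all genes. No member passed a test of that difference (0 of 58 by limma with a dye coefficient, 6 at an unadjusted p under 0.05), where 0.0437% of all genes were called, and 10.4% were under 0.05 unadjusted. A fit with that coefficient left the member median at -0.13 and the count below 0 at 51. In a balanced swap it cannot change the mean of a gene with 4 values, so only the 3 members with 3 values could move. This fit therefore says nothing on whether the shift depends on the dye. If the columns were instead ratios of one fixed dye over the other, the signs of replicates 1 and 3 would have to be turned, and the median of the means would then be 0.058. With the signs turned, 1 of the 5112 genes tested was called, against 155 with the deposited signs.

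**Figure D3:**
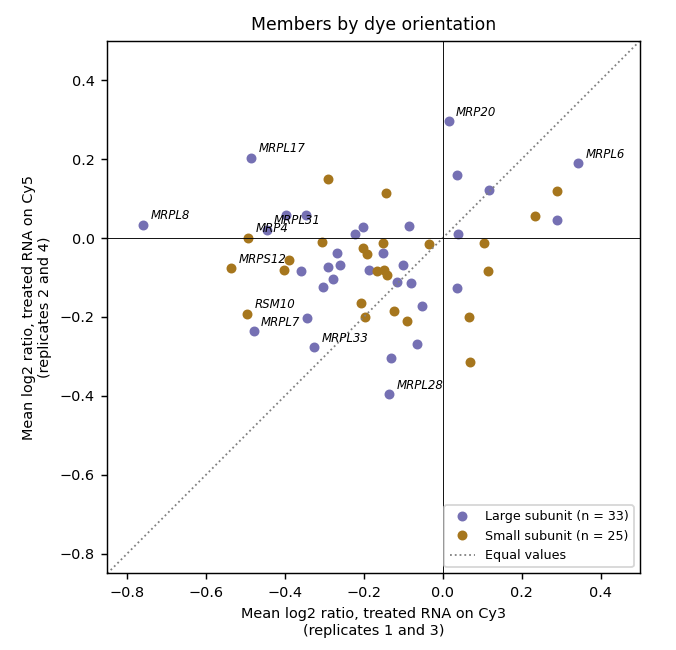
Mean log2 ratio of each member over replicates 2 and 4, treated RNA on Cy5 (vertical axis), against its mean over replicates 1 and 3, treated RNA on Cy3 (horizontal axis), for 58 genes with 4 values, coloured by subunit. Points above the dotted line were higher on the Cy5 arrays, 40 in all, with MRPL8 and MRPL17 farthest from it.

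The large subunit joins amino acids and holds the tunnel through which the new chain leaves. Its 34 tested genes had a median of -0.14, with 28 means below 0. MRPL7, the homologue of bacterial uL5, had log2 ratios of -0.55, -0.11, -0.41 and -0.36 on replicates 1 to 4. All 4 arrays put it below 0, and its mean of -0.36 ± 0.18 (SD, n = 4) had the lowest adjusted p of the family without passing (adjusted p = 0.100). MRPL33, the homologue of uL30, was also below 0 throughout, at -0.33, -0.49, -0.32 and -0.061. Its mean was -0.30 ± 0.18 (adjusted p = 0.152). MRPL8, the homologue of bL17, had the lowest mean of all members, -0.36 ± 0.49, but its arrays split by dye. They read -0.98 and -0.54 with treated RNA on Cy3, and 0.017 and 0.052 with treated RNA on Cy5. Its rank as lowest rested on replicate 1, without which its mean was -0.16 and that of MRPL7 -0.29.

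MRPL38, the homologue of uL14 on the face that meets the small subunit, read -0.26, 0.012, -0.42 and -0.42, with replicate 2 near 0 and the other arrays below it, and a mean of -0.27 ± 0.20. MRPL28, a protein without a bacterial counterpart, read -0.35, -0.59, 0.074 and -0.20. Replicate 3 alone lay above 0 there, the reverse of the family's pattern, in which replicate 3 was lowest. Its mean of -0.27 ± 0.28 was the lowest among tested proteins specific to mitochondria. MRPL20, MRPL32 and MRPL39 were below 0 on every array, with means of -0.22 ± 0.17, -0.21 ± 0.12 and -0.19 ± 0.10. The protein of MRPL32, homologous to bL32, is matured in the organelle by the m-AAA protease before it joins the ribosome.

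Around the peptidyl transferase centre, MRP7 (bL27 family), MRPL16 (uL16 family) and MRPL9 (uL3 family) had means of -0.096 ± 0.11, -0.084 ± 0.080 and 0.17 ± 0.28. Replicate 1 stood highest for MRPL9, with 0.58 against 0.095, -0.0058 and -0.0029 on the others. At the tunnel exit, MRP20 (uL23), MRPL22 (uL22), MRPL4 (uL29) and MRPL40 (uL24) had means of 0.16 ± 0.24, -0.045 ± 0.13, -0.088 ± 0.18 and -0.18 ± 0.17. Neighbours in the structure thus lay on both sides of 0. MRPL11 and MRPL19, of the stalk and its base where elongation factors dock, stood at -0.13 ± 0.14 and -0.15 ± 0.27. These structural sets were chosen with the values known.

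MRPL6, the homologue of uL6, was the highest member. It read 0.39, 0.0052, 0.30 and 0.37 on replicates 1 to 4, above 0 on each although barely so on replicate 2, with a mean of 0.27 ± 0.18 (adjusted p = 0.196). MRPL3, specific to mitochondria and related in sequence to RNase III, was at 0.12 ± 0.29, and MRP35, of the bL35 family, at 0.099 ± 0.24, each with replicate 3 below 0 and the other arrays above. MRPL44 averaged 0.024 ± 0.48 from strongly opposed values, 0.46, -0.40, -0.38 and 0.42. MRPL17 was spread too, at -0.18, 0.0041, -0.79 and 0.40, where the lowest and highest arrays lay farther apart than in any other member.

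The small subunit binds the mRNA and decodes it. Its 27 tested genes had a median of -0.12, with 23 means below 0, close to the large subunit's -0.14. The SD of the array medians was 0.0970 for the small and 0.102 for the large subunit. Both were measured on the same arrays, so these SDs do not measure the uncertainty of the difference, which was not tested. On replicate 1 the small subunit stood at -0.096 and the large at -0.21, whereas on replicate 3 they stood at -0.27 and -0.23, so neither subunit was lower on every array.

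RSM10, the homologue of uS10 in the head of the subunit, was the lowest small-subunit gene. Its arrays read -0.51, -0.15, -0.48 and -0.23, all below 0, and its mean of -0.34 ± 0.18 did not pass (adjusted p = 0.108). All 5 member proteins of the head that descend from bacteria had means below 0, as did 87.5% of the 16 tested small-subunit members of bacterial descent. Besides RSM10 the 5 were MRPS9 (uS9) at -0.24 ± 0.19, MRP2 (uS14) at -0.20 ± 0.22, RSM19 (uS19) at -0.12 ± 0.11 and RSM7 (uS7) at -0.071 ± 0.39. RSM7 was uneven, with -0.60 on replicate 1 and 0.34 on replicate 2, and leaving out single replicates moved its mean between -0.21 and 0.11. That set too was chosen with the values known.

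MRPS12, the homologue of uS12, which monitors codon pairing at the decoding site, read -0.54, 0.077, -0.54 and -0.23. Replicates 1 and 3 were far below 0 and replicate 2 above it, around a mean of -0.31 ± 0.29 (adjusted p = 0.194). MRP4, of the uS2 family, had the same order of arrays, -0.66, 0.051, -0.33 and -0.049, and a mean of -0.25 ± 0.32. MRPS5, of the uS5 family, was the highest small-subunit gene at 0.21 ± 0.38, reading 0.55, -0.25, 0.031 and 0.49, with replicates 1 and 4 far above replicates 2 and 3. RSM25, specific to mitochondria, was above 0 on all 4 arrays, at 0.29, 0.0025, 0.18 and 0.11, with a mean of 0.14 ± 0.12.

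MRP1 and RSM26, proteins specific to mitochondria that are related in sequence to superoxide dismutases, were not tested against each other. MRP1 read -0.088, -0.048, -0.20 and 0.28, below 0 on 3 arrays and above it on replicate 4, and averaged -0.015 ± 0.20. RSM26 read -0.39, 0.071, -0.39 and -0.18, with replicates 1 and 3 lowest, and averaged -0.22 ± 0.22. Neither passed the test (adjusted p = 0.955 and 0.296). MRP51, of the bS1 family, which genetic work in yeast links to the leaders of mitochondrial mRNAs, averaged 0.046 ± 0.15, and MRPS35, the closest to 0 above it, 0.016 ± 0.28. RSM22, a protein related to methyltransferases, averaged -0.12 ± 0.27 with replicate 1 at 0.26 and the others below 0.

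**Figure D4:**
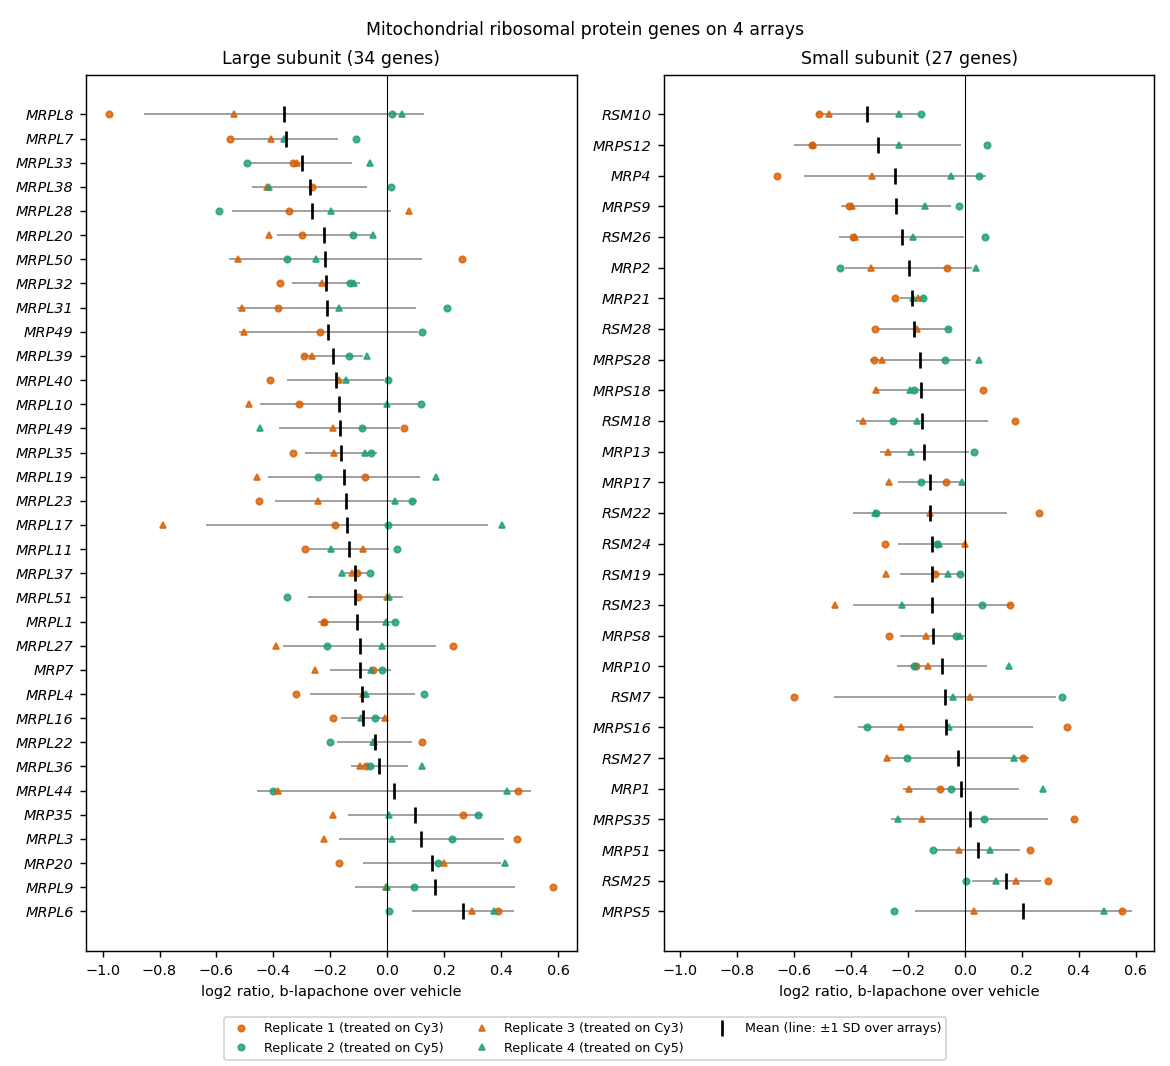
Log2 ratio (horizontal axis, b-lapachone over vehicle) of each tested member on each array, large-subunit genes on the left and small-subunit genes on the right, ordered by mean. Circles and triangles are single arrays, orange for treated RNA on Cy3 and green for treated RNA on Cy5, black ticks are means and grey lines ±1 SD. Most ticks lie left of 0, between -0.36 and 0.27, and orange points are often the leftmost.

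The most even members were MRPL37, MRP21, MRPL16, MRPL36 and MRPL39, the lowest SDs among those with 4 values. MRPL37 read -0.11, -0.061, -0.13 and -0.16 and MRP21, the homologue of bS21, -0.25, -0.15, -0.16 and -0.18, both groups of values wholly below 0. Their means were -0.11 ± 0.041 and -0.19 ± 0.044. The 95% interval of the MRP21 mean ran from -0.39 to 0.022 with limma's pooled variance, which widens the interval of a gene with an unusually small spread. MRPL36, the homologue of bL31, averaged -0.028 ± 0.10, with 0.12 on replicate 4.

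The largest dye differences, Cy5 arrays minus Cy3 arrays, belonged to MRPL8 (0.79), MRPL17 (0.69), MRP4 (0.49), MRPL31 (0.47) and MRPS12 (0.46). All 5 were higher on the Cy5 arrays, as were 69.0% of the members with 4 values. They were picked for the size of this difference, which favours separation of the Cy3 and Cy5 values. None passed the dye test (limma, Benjamini-Hochberg adjusted p between 0.228 for MRPL8 and 0.431 for MRPL31). MRPL31, a large-subunit protein specific to mitochondria, read -0.38, 0.21, -0.51 and -0.17 and averaged -0.21 ± 0.32.

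Medians by descent lay close together. The 39 tested members with a bacterial homologue had a median of -0.15 and 33 means below 0, and the 21 specific to mitochondria a median of -0.12 and 17 below 0. Of the 8 members below 0 at an unadjusted p under 0.05 (limma), 7 had a bacterial homologue, as did 39 of the 61 members tested. A difference by descent was not tested.

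Proteins of the same ribosome that carry other kinds of names were taken as a separate list. Of 13 tested, 11 had means below 0, their median was -0.15 and 0 were called. NAM9 and SWS2, small-subunit proteins of bacterial descent, were below 0 on all 4 arrays, with means of -0.16 ± 0.12 and -0.18 ± 0.19. IMG2 and YML6, of the large subunit, averaged -0.16 ± 0.19 and -0.15 ± 0.16. MHR1, which also acts in mitochondrial DNA recombination, was lowest, with -0.76, -0.29 and -0.36 on replicates 1 to 3 and a mean of -0.47 ± 0.25 (n = 3, adjusted p = 0.0846).

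The medians of other lists of mitochondrial gene expression lay nearer 0, that for transcription coming closest to the ribosomal proteins. The translation factors had a median of 0.019 over 8 genes, 0 of them called. Within that list MEF1, the elongation factor that moves the ribosome along the mRNA, averaged -0.23 ± 0.051 and was below 0 on all 4 arrays, RRF1, the recycling factor, averaged 0.36 ± 0.21 and was above 0 on all 4, and TUF1, which delivers aminoacyl-tRNA, averaged -0.026 ± 0.23. Factors of ribosome assembly and rRNA modification had a median of 0.017 over 10 genes, 0 called, with the rRNA methyltransferase MRM2 largest at 0.27 ± 0.21. The mitochondrial aminoacyl-tRNA synthetases and amidotransferase had a median of -0.056 over 16 genes, 0 called, with the methionyl-tRNA synthetase MSM1 largest in size at -0.30 ± 0.19.

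The translational activators of single mitochondrial mRNAs had a median of -0.051 over 14 genes, 0 called. PET122, an activator of COX3 mRNA, was at 0.40 ± 0.29 (adjusted p = 0.100), and MSS51, which serves COX1 mRNA, at -0.036 ± 0.13 (n = 3). The 3 genes whose proteins hold the ribosome at the inner membrane, MBA1, MDM38 and OXA1, all had means above 0, with MBA1 at 0.22 ± 0.12 and OXA1 at 0.050 ± 0.29 (n = 3), and 0 were called. In mitochondrial transcription the 5 genes had a median of -0.12, 0 called, with MTF1, the initiation factor of the mitochondrial RNA polymerase, at -0.33 ± 0.21 and below 0 on all 4 arrays.

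The respiratory subunits, whose mitochondrially made partners these ribosomes supply, had a median of -0.13 over 32 genes, with 26 means below 0. That median was close to the mitochondrial ribosomal -0.13, but 4 of the 32 were called lower (CYT1, COX13, QCR2 and COX5B), where 0.959% of all genes were. The lowest was cytochrome c1, CYT1, at -1.18 ± 0.28 (limma, adjusted p = 2.67e-04). The means of the others held their direction when single replicates were left out, from -0.72 to -0.54 for COX13, -0.47 to -0.35 for COX5B and -0.67 to -0.39 for QCR2, but calls were lost without replicates 2, 3 and 4 in turn for COX13 and COX5B and without replicates 1, 3 and 4 in turn for QCR2. COX13 had no value on replicate 3, so its mean without that array was the same and only its adjusted p moved, to 0.103. Cytosolic ribosomal proteins, made by the same cells for their main ribosomes, had a median of 0.041 over 129 genes, with 49 means below 0 (38.0%) and 1 called lower, RPL31B, at -0.43 ± 0.14 (limma, adjusted p = 0.0429, lost without replicates 1, 3 and 4 in turn and, as for QCR2 and COX5B, when genes with values on 2 arrays were added). On single arrays their median was 0.0079, 0.065, -0.036 and 0.039, above the mitochondrial ribosomal median on each. No test of a difference between these lists was run.

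Among regulators, PUF3 itself read -0.24, 0.11, -0.15 and -0.085 and averaged -0.090 ± 0.15 (adjusted p = 0.678), so no change in its mRNA was detectable. HAP4, the activating subunit of the Hap2/3/4/5 complex that drives respiratory genes, read 1.06, 0.35, 0.30 and 0.18, above 0 on all 4 arrays and highest on replicate 1. Its mean of 0.47 ± 0.40 did not pass (adjusted p = 0.0984). IFH1, a coactivator of cytosolic ribosomal protein genes, rose by 0.47 ± 0.19 (limma, adjusted p = 0.0365), the only call among 8 regulators tested, and that call was lost without replicate 3 and without replicate 4.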

How the data were processed

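Per the labels' protocols, total RNA was prepared by acid-phenol extraction and labelled indirectly. The authors deposited 1 value per ORF and array, taken here as a log2 ratio. How they scanned, corrected and normalized the arrays is not stated, nor are log base and direction. Column medians lay between -0.0227 and 0.00285, near 0 as in centred columns. All 6 pairs of columns correlated above 0, as columns running in 1 direction of treatment would, which does not settle the direction. Of 6211 ORFs, 5638 matched a locus tag of the R64 gene table, and the 5112 with values on at least 3 arrays were tested (4574 on 4, 538 on 3). Dim spots could not be recognised without signal values, and precision is limited by the number of arrays.

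Each gene's mean was compared with 0 by limma 3.58.1 (R 4.3.3; lmFit, eBayes, intercept only, two-sided, Benjamini-Hochberg over all genes tested, threshold 0.05), with no further normalization, and the procedure was tested on simulated data. The dye coefficient was tested on genes with 4 values. Members and lists were chosen with earlier results of these data known. Named members are any called, the 10 highest and 10 lowest means, the 5 lowest SDs, the 5 largest dye differences, the extremes of each subunit and descent class, and MRP1 and RSM26. From each other list up to 4 called genes, or otherwise the largest, and 6 fixed genes (PUF3, HAP4, MSS51, OXA1, TUF1 and MEF1) are named. Other genes were named after their values were seen. Promoter motifs and protein features had been planned and were not analysed here, nor were genes of the mitochondrial genome. Alternatives changed the dye term, centring, scaling, quantiles, missing-value filter, variance prior, own variance, array weights, direction and each replicate.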

Additional observations from a re-analysis of the deposited data

Results flagged for a closer look

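In 3 of 58 members with 4 values, 1 array stood apart from the other 3 by Dixon's criterion, which flags about 1 in 20 groups by chance. MRP7 (bL27 family) read -0.25 on replicate 3, below its other arrays (-0.050, -0.020 and -0.058). MRP10, a small-subunit protein specific to mitochondria, read 0.15 on replicate 4, above 0, where its other arrays read -0.17, -0.18 and -0.13. MRPL36 read 0.12 on replicate 4, against -0.075, -0.063 and -0.096.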

How the results depend on the processing

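No alternative called a member. The members' median ran from -0.15 to -0.10 when single replicates were left out (-0.14 to -0.10 for the small and -0.17 to -0.11 for the large subunit), with 47 to 52 means below 0, and from -0.14 to -0.12 under the other alternatives, the sign change apart. Turning the signs of replicates 1 and 3, as a table of one fixed dye would need, reversed the median to 0.058 (0.037 small, 0.067 large). The lists of sign changes cover the set of genes named by rule and the called neighbours of members. Within that set, means that changed sign there were MRPL8 0.40, MRPL7 0.12, RSM10 0.15, MRPS12 0.23, MRPL33 0.025, MRPL38 0.071, MRP4 0.25, MRPS9 0.16, RSM26 0.17, MRPS35 -0.099, MRPL44 -0.014, MRP51 -0.058, RSM25 -0.090, MRPL9 -0.12, MRPS5 -0.085, MRPL6 -0.077, MRPL37 0.0026, MRP21 0.020, MRPL16 0.016, MRPL36 0.058, MRPL39 0.087, MRPL31 0.23, MRPL17 0.34, MRP1 0.13, RPL31B 0.12, MBA1 -0.091, MHR1 0.28, MRM2 -0.15, MTF1 0.11, MEF1 0.021, RRF1 -0.13, TUF1 0.15, HAP4 -0.21, IFH1 -0.045, PUF3 0.10, CYT1 0.21, QCR2 0.24, MSS51 0.018, PET122 -0.15, PDR15 0.41 and UBP10 -0.060. Members outside the set changed sign there too, among them MRPL20, MRPL32, MRPL40, MRP7 and RSM19. Of all 61 tested members, 43 then lay above 0. With array weights the sign changed for MRPS35 (-0.056), MRPL44 (-0.027) and TUF1 (0.0018). With scaled columns the sign changed for MRPS35 (-0.0096), MRPL44 (-0.0050) and TUF1 (0.00048). With quantile normalization the sign changed for MRPS35 (-0.012). Within the same set, leaving out single replicates changed the sign of MRP1 (-0.11 to 0.046), MRP51 (-0.016 to 0.098), MRPL17 (-0.32 to 0.075) and MRPL44 (-0.12 to 0.17). It also changed that of MRPS35 (-0.11 to 0.099), MSS51 (-0.11 to 0.014), OXA1 (-0.073 to 0.21) and TUF1 (-0.12 to 0.066). Members outside the set that changed sign were RSM7 (-0.21 to 0.11), MRPS16 (-0.21 to 0.026), MRPL22 (-0.10 to 0.0073), RSM27 (-0.10 to 0.058) and MRPL27 (-0.21 to 0.00075). With each gene's own variance no gene of the table was called (0 of 5112; 7 members at an unadjusted p under 0.05), so each call named in the text was lost there. COX5B also lost its call with centred columns (adjusted p = 0.0580), and with values on at least 2 arrays COX5B, QCR2, RPL31B and UBP10 did (0.0598, 0.0531, 0.0537 and 0.0598). The 155 calls over all genes became 27 without replicate 3, 67 without replicate 4, 263 with array weights and 1 with the signs of replicates 1 and 3 turned. The causes were not tested. No paired analysis was possible beyond the ratios themselves, because each array already pairs a treated with a vehicle culture and the test against 0 is the paired test.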

Other observations

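The genes that lie next to mitochondrial ribosomal protein genes on the chromosomes had a median nearer 0, a difference that was not tested. Over 102 tested protein-coding neighbours that are not members, the median log2 ratio was -0.0033 and 53 means were below 0. For all genes tested the median was -0.015, with 53.2% below 0. By gene order and strand, the 35 neighbours transcribed towards a member had a median of -0.054 with 23 below 0. The 42 transcribed in the same direction as a member had a median of 0.0032 with 20 below 0. KKQ8, beside both MRPL38 and MRP49, falls in both sets. For the 26 neighbours transcribed away from a member, the median was 0.042 with 10 below 0. Whether each shares the region upstream of the member was not checked. Of the 102, 3 were called, against 3.03% of all genes. PDR15, a drug pump beside MRP20, fell, with a mean of -0.85 ± 0.17 (n = 3). LYS12, of lysine synthesis, beside RSM25, rose by 0.64 ± 0.37 and UBP10, a ubiquitin protease beside MRPL19, by 0.40 ± 0.075. All 3 calls were lost without replicate 3, that of LYS12 also without replicate 2 and that of UBP10 without any single replicate. MRPS12 and RSM19 are the only members next to each other in the gene table's order, with means of -0.31 and -0.12.

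The order of the members was poorly repeated from array to array. Over 58 to 62 members with values on both arrays of a pair, Pearson's r ranged from -0.20 (replicates 1 and 2) to 0.31 (replicates 1 and 3), where over all ORFs it ranged from 0.097 to 0.48. These are descriptions across genes, which are not independent replicates, and the arrays of a pair share the dye orientation in some pairs and not in others. The low r accompanies the narrow spread of the members' means (SD 0.14), close to the median standard error of 0.108.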
